A study of Oryza sativa Indica Group with 2 samples.

Results

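The minichromosome maintenance (MCM) genes *MCM2*, *MCM3*, *MCM4*, *MCM5*, *MCM6* and *MCM7* and the gene of proliferating cell nuclear antigen (*PCNA*), 7 of the 55337 loci of the expression table, were examined in young rice panicles. They were chosen by name and locus, one locus per protein, and a reference list of rice genes held each of the 7 names on the chromosome that the locus identifier gives. RNA came from spikelets with meiocytes in prophase I, taken from several panicles per genotype and pooled, and each genotype was sequenced as 1 library. The *Osam1* plants carry a short deletion in the second exon of *OsAM1*, induced by radiation in the *indica* variety Zhongxian 3037, which brings in a premature stop codon and halts pollen mother cells in leptotene. Zhongxian 3037 itself was the wild type, and both were grown in the same paddy field. Spikelets are mostly somatic tissue, so a difference in the number of cells of a type and a difference in the RNA per cell cannot be told apart.

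MCM2 to MCM7 each give one subunit to the ring-shaped replicative helicase of eukaryotes. The ring is loaded onto origins of replication before S phase by the origin recognition complex, and it becomes an active helicase when CDC45 and the GINS complex join it. PCNA is the sliding clamp, a ring of identical subunits that holds DNA polymerases on the template. Both are used wherever cells copy their DNA, in the dividing cells of a growing panicle and in the S phase that comes before meiosis.

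Values are FPKM, fragment numbers divided by transcript length and by library size, added over the transcript models of a locus. With 1 library per genotype no difference has a replicate check, and no p-values were computed. The libraries are named after the submitters' labels, because the spelling of the column headings and the directions that the study lists for loci with 1 transcript model both go with the opposite assignment of the columns. Every direction below therefore rests on the labels. One locus outside the members took 22.0% of the summed FPKM in the *Osam1*-labelled library and 7.43% in the wild-type-labelled library, while the median FPKM ratio between the libraries was 1.05 over the 16844 loci with at least 1 FPKM in both. *MEL1* (LOC_Os03g58600) and *MIL1* (LOC_Os07g05630), genes of germ cell development and of the entry into meiosis in the anther, were above 0 in both libraries, with 22.1 and 7.96 FPKM in the *Osam1*-labelled library and 19.6 and 4.48 FPKM in the wild-type-labelled library.

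All 7 members were above 0 in both libraries. Between the libraries 1 of the 7 differed at least 2-fold, beside 36.2% of all loci with a mean level in the range of the members and 44.5% of all loci whose mean reached 1 FPKM. *MCM6* stood at 11.1 FPKM in the *Osam1*-labelled library and at 3.19 FPKM in the wild-type-labelled library, while the other 5 MCM genes and *PCNA* stayed within 1.5-fold. Summed over those 5 MCM genes, a set named after the values were seen, the libraries held 51.9 and 52.1 FPKM.

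*MCM2* (LOC_Os11g29380, chromosome 11), a subunit that in yeast and animals also binds histones, had 8.14 FPKM in the *Osam1*-labelled library and 8.63 FPKM in the wild-type-labelled library. Its log2 ratio, with 1 FPKM added to each value, was -0.08, the smallest difference among the members. *MCM3* (LOC_Os05g39850, chromosome 5) was the highest MCM gene in both libraries, with 16.1 FPKM in the *Osam1*-labelled library and 12.5 FPKM in the wild-type-labelled library (log2 ratio 0.34). *MCM5* (LOC_Os02g55410, chromosome 2), whose protein lies beside MCM3 in the ring, had the opposite sign, with 7.43 FPKM in the *Osam1*-labelled library and 10.8 FPKM in the wild-type-labelled library (log2 ratio -0.49). Added together, *MCM3* and *MCM5* had 23.5 and 23.3 FPKM, so that the pair as a whole was level between the libraries.

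*MCM4*, *MCM6* and *MCM7* encode subunits that form a helicase on their own in test-tube assays with yeast and animal proteins. *MCM4* (LOC_Os01g36390, chromosome 1) had 13.5 FPKM in the *Osam1*-labelled library and 11.2 FPKM in the wild-type-labelled library (log2 ratio 0.25), and it was second to *MCM3* among the MCM genes in both. *MCM7* (LOC_Os12g37400, chromosome 12) had 6.77 FPKM in the *Osam1*-labelled library and 9.02 FPKM in the wild-type-labelled library (log2 ratio -0.37). *MCM6* (LOC_Os05g14590, chromosome 5) had a log2 ratio of 1.53 with 1 FPKM added, which as a plain ratio of the FPKM values is 3.48. The 3 genes together had 31.4 FPKM in the *Osam1*-labelled library and 23.4 FPKM in the wild-type-labelled library, of which *MCM4* and *MCM7* without *MCM6* made up 20.3 and 20.2 FPKM.

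*PCNA* (LOC_Os02g56130, chromosome 2) was the highest of the 7 members in both libraries, with 49.0 FPKM in the *Osam1*-labelled library and 42.6 FPKM in the wild-type-labelled library. Its log2 ratio was 0.20. As FPKM, a value per length of transcript, *PCNA* stood at 4.67 times the mean of the MCM genes in the *Osam1*-labelled library and at 4.62 times in the wild-type-labelled library. Against the median of the MCM genes it stood at 5.10 and 4.29 times, respectively, so the near equality depends on the use of the mean. Reads across exon junctions were not matched, so a difference in level between 2 genes also holds the difference in their exons. Against *MCM6* alone it stood at 4.42 times and 13.3 times, respectively. On chromosome 2, *PCNA* and *MCM5* lie a short way apart by locus number and had log2 ratios of opposite sign.

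**Figure D1:**
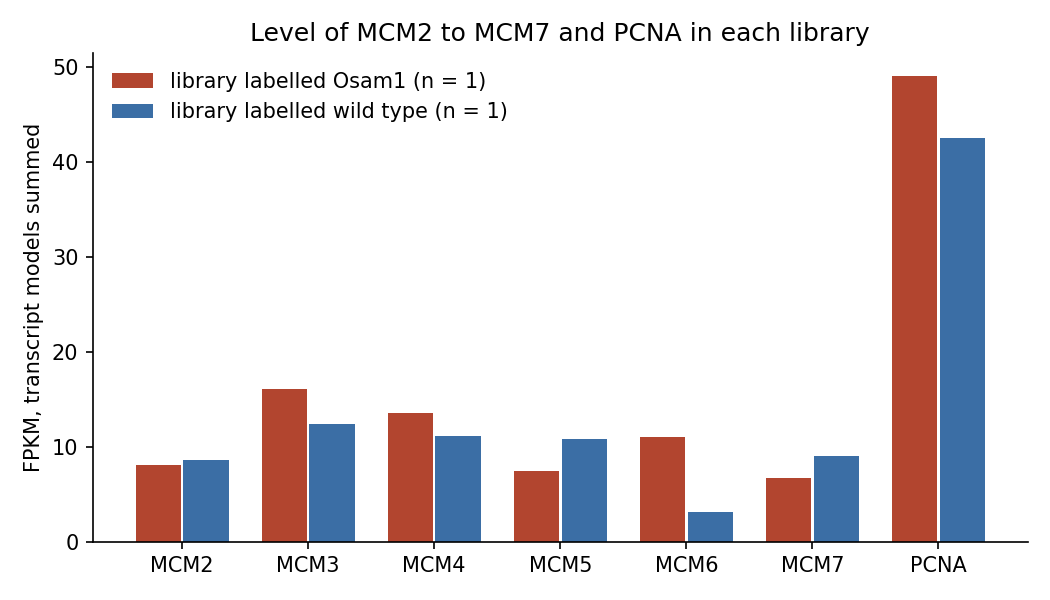
FPKM of each member (vertical axis, transcript models summed) in the *Osam1*-labelled library (red) and the wild-type-labelled library (blue), 1 library per bar and so without error bars. *PCNA* stands above all MCM genes in both libraries, and *MCM6* is the one pair of bars that differs at least 2-fold, at 11.1 and 3.19 FPKM.

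The subunits of the ring were not at one level in either library. In the *Osam1*-labelled library, the 6 MCM genes ran from 6.77 FPKM (*MCM7*) to 16.1 FPKM (*MCM3*), a 2.38-fold span, with a median of 9.62 FPKM. In the wild-type-labelled library they ran from 3.19 FPKM (*MCM6*) to 12.5 FPKM (*MCM3*), a 3.91-fold span, with a median of 9.93 FPKM. The SD over the 6 genes was 35.5% of their mean in the former and 35.6% in the latter. This near equality depends on *MCM6*. Over the other 5 genes, a set named after the values were seen, the SD was 40.0% of the mean in the *Osam1*-labelled library and 15.2% in the wild-type-labelled library.

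In the wild-type-labelled library *MCM6* was the lowest subunit, and the other 5 lay between 8.63 and 12.5 FPKM. In the *Osam1*-labelled library *MCM6* lay inside the range of the others. The spread is that of genes within 1 library, which are not replicates.

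From high to low, the order was *MCM3*, *MCM4*, *MCM6*, *MCM2*, *MCM5* and *MCM7* in the *Osam1*-labelled library, and *MCM3*, *MCM4*, *MCM5*, *MCM7*, *MCM2* and *MCM6* in the wild-type-labelled library. *MCM6* stood at 1.07 times the mean of the other 5 in the former and at 0.306 times in the latter. As a share of the summed MCM signal, it made up 17.6% in the *Osam1*-labelled library and 5.77% in the wild-type-labelled library, where an equal share would be 16.7%. The share of *MCM5* was 11.8% against 19.6% and that of *MCM7* 10.7% against 16.3%, the next largest differences. Between the libraries, the log2 levels of the 6 genes had a Pearson correlation of 0.10 and a Spearman correlation of 0.49. Without *MCM6*, left out after the values were seen, the correlations over 5 genes were 0.80 and 0.70. All of these describe a few genes measured in the same pair of libraries.

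**Figure D2:**
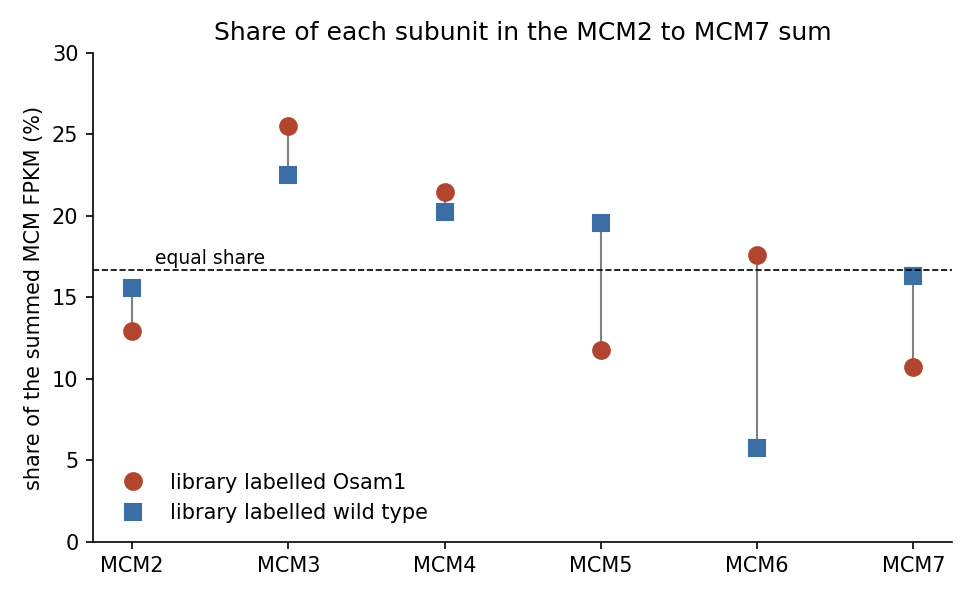
Share of each subunit in the summed FPKM of MCM2 to MCM7 (vertical axis, percent) in the *Osam1*-labelled library (red circles) and the wild-type-labelled library (blue squares), joined by a grey line, with the equal share of 16.7% dashed. *MCM6* has the longest line, from 5.77% to 17.6%, while *MCM3* and *MCM4* lie above the equal share in both libraries.

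Among the log2 ratios of the 6 MCM genes, 3 were above 0 and 3 below, and they ran from -0.49 to 1.53 with a median of 0.09 and an SD of 0.73. Of the 15 pairs of subunits, all 5 that include *MCM6* had log2 ratios more than 1 apart, by 1.19 (with *MCM3*) to 2.02 (with *MCM5*), and none of the other 10 did, their largest gap being 0.83 between *MCM3* and *MCM5*. *MCM3* and *MCM4* were the closest pair, 0.09 apart.

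The 7 ratios were set beside those of loci not chosen for any function. Of the 21837 loci whose mean over both libraries reached 1 FPKM, 44.5% differed at least 2-fold in either direction, and so did 36.2% of the 9775 loci whose mean lay within the range of the members, from 7.14 to 45.8 FPKM. In the latter set, 16.8% were at least 2-fold higher in the *Osam1*-labelled library. Against these shares, 1 of 7 members past 2-fold is not a raised number. The shares take in loci listed at 0 in 1 library, 18.6% of the 21837 and 5.12% of the 9775, while no member was listed at 0. The median log2 ratio was 0.20 over the 7 members and 0.02 over the loci of the same range, and their interquartile range ran from -0.73 to 0.69, an interval that holds every member but *MCM6*.

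At the level of the MCM genes alone, a mean between 7.14 and 14.3 FPKM, 12.7% of 3329 loci had a log2 ratio at least as high as that of *MCM6*. A difference of that size was thus seen in unrelated loci of this pair of libraries too. Of these 3329 loci, 10.5% were listed at 0 in 1 library, as *MCM6* was not, and the share without them was not computed.

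**Figure D3:**
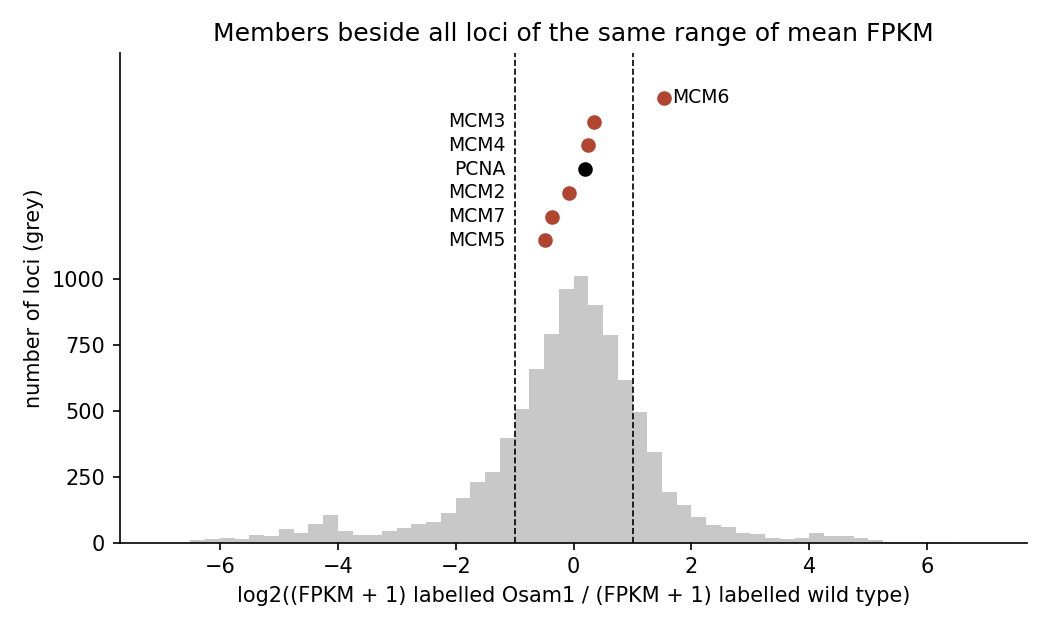
Log2 ratio of the *Osam1*-labelled library over the wild-type-labelled library, with 1 FPKM added (horizontal axis), for the MCM genes (red points), *PCNA* (black point) and the 9775 loci with a mean within that of the members (grey histogram, vertical axis in loci). The height of the points has no meaning and the dashed lines mark 2-fold, which *MCM6* alone among the members passes.

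The number of reads behind the values is not in the table, but ratios of low values fell on steps as whole reads would give. Of the ratios of 3727 loci with 1 transcript model and low values, 22.4% lay on steps of 2.37 times a ratio of small whole numbers and 24.1% on steps of 1.18, against a median of 3.89% over all step sizes tried, and the 2 sizes could not be told apart. If whole reads were counted, the fewest that give the values of *MCM6* are 22 in the *Osam1*-labelled library and 15 in the wild-type-labelled library on the former steps, and 41 and 14 on the latter. The counting error of its log2 ratio would then be at most 0.48 (SE). For the other members the same bound ran from 0.30 for *MCM4* on the latter steps to 0.73 for *MCM3* on the former. It covers counting alone, not the spread between plants or libraries, nor copies made by PCR. Each of the 6 members other than *MCM6* had a log2 ratio smaller in size than the larger of its own 2 bounds, with 1 FPKM added or as a plain ratio. The fewest reads are only the least that the rounded values allow. The study gives total reads per library, more for the *Osam1* mutant than for the wild type, but none per gene. Those totals were not used here, and the true numbers per gene may be much higher. Steps below 1, which would go with more reads in the *Osam1*-labelled library, were not tried. With more reads the counting error would be smaller, so these bounds cannot decide whether the differences exceed it.

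The 7 loci have 9 transcript models in the table, and in each locus a single one carried the whole signal. *MCM5* has 2, of which model 1 held the values above and model 2 was listed at 0 in both libraries. *MCM7* also has 2, and there model 2 held the values and model 1 was listed at 0 in both. The sums per locus therefore mix no models that moved apart. No other transcript model of the table shared both FPKM values with a member. This check misses models that match in 1 library only, as those of *RPA3* below do, so it cannot tell whether reads were shared.

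Genes around the helicase were limited to 6 loci that the study annotates by identifier. It lists *CDKA-1* under oocyte meiosis and the flap endonuclease under mismatch repair, and these were placed in the list for the known roles of such proteins in the S phase. The study picked all 6 on these same libraries, so they are no independent evidence of a direction. It lists *CDC45A*, *ORC4* and *CDKA-1* as down in *Osam1* and *RPA3*, the flap endonuclease and LOC_Os02g07240 as up, each opposite to the sign of the sums below. The study also reports that qRT-PCR in another pair of samples, with *ORC4* and LOC_Os02g07240 among the genes, gave the same patterns as its own sequencing results. By the sums per locus, 1 was at least 2-fold higher in the *Osam1*-labelled library, 2 were at least 2-fold lower and 3 were within 2-fold, with a median log2 ratio of -0.18. This median takes in the sum of *RPA3*, whose sign depends on adding equal values of its transcript models, as given below. All 3 beyond 2-fold were listed at 0 in one of the libraries. Their means, from 1.25 to 6.23 FPKM, lay below the range of the members, in which 5.12% of loci were listed at 0 in 1 library. Among the 21837 loci that averaged 1 FPKM or more, 18.6% were listed at 0 in 1 library and 44.5% differed at least 2-fold. No share was computed for loci at the level of these 3 alone.

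*CDC45A* (LOC_Os12g03130, chromosome 12), whose protein joins the MCM ring to make the active helicase, had 7.16 FPKM in the *Osam1*-labelled library and was listed at 0 in the wild-type-labelled library. It lay on the same side as *MCM6*, and its level in the former library was between those of *MCM7* and *MCM5*. The locus LOC_Os02g07240 on chromosome 2, placed in the DNA replication pathway, went the other way, listed at 0 in the *Osam1*-labelled library and at 12.5 FPKM in the wild-type-labelled library. A flap endonuclease locus (LOC_Os01g56940, chromosome 1), of an enzyme family that trims Okazaki fragments, was likewise listed at 0 in the *Osam1*-labelled library and had 2.49 FPKM in the other.

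*ORC4* (LOC_Os01g49010, chromosome 1), a subunit of the complex that loads the MCM ring, had 43.7 FPKM in the *Osam1*-labelled library and 33.9 FPKM in the wild-type-labelled library, a log2 ratio of 0.36. *RPA3* (LOC_Os01g14980, chromosome 1), a subunit of the protein that covers single-stranded DNA behind the helicase, had 30.6 and 44.8 FPKM (log2 ratio -0.53). *CDKA-1* (LOC_Os03g02680, chromosome 3), a kinase of the cell cycle, had 118.2 and 104.2 FPKM (log2 ratio 0.18), near the ratio of *PCNA*. In these 3 loci the transcript models differed in direction or size between the libraries. Model 1 of *CDKA-1*, for instance, had 34.5 FPKM in the *Osam1*-labelled library and was listed at 0 in the wild-type-labelled library, while its model 2 had 83.7 and 104.2 FPKM. Model 1 of *ORC4* had 9.98 FPKM in the *Osam1*-labelled library and was listed at 0 in the other, while its model 2 had 33.7 and 33.9 FPKM. The positive ratio of *ORC4* thus rests on model 1, and model 2 alone was nearly level. Both models of *RPA3* were listed at the same 22.4 FPKM in the wild-type-labelled library. In the *Osam1*-labelled library, model 2 of *RPA3* had 30.6 FPKM and model 1 was listed at 0. The negative ratio of *RPA3* thus depends on adding 2 equal values, and model 2 alone was higher in the *Osam1*-labelled library. The *ATR* homolog (LOC_Os06g50910, chromosome 6), a checkpoint kinase that the study names beside *RPA3*, *ORC4* and *CDC45A*, was not in the list and was added after its values were seen. It had 3.14 and 3.45 FPKM over 3 transcript models, a log2 ratio of -0.10. All 3 models were listed at the same 1.15 FPKM in the wild-type-labelled library, while model 3 alone held the 3.14 FPKM in the other. The near-level sum thus depends on adding equal values, and model 3 alone was higher in the *Osam1*-labelled library.

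**Figure D4:**
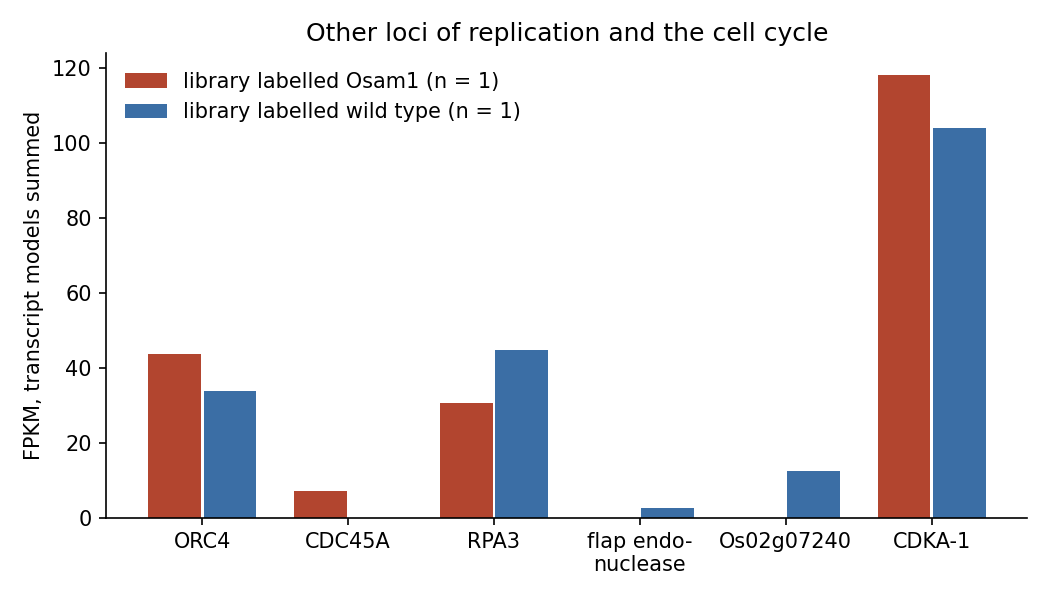
FPKM (vertical axis, transcript models summed) of the 6 other loci in the *Osam1*-labelled library (red) and the wild-type-labelled library (blue), 1 library per bar. A missing bar is a value listed at 0, seen for *CDC45A* in the wild-type-labelled library and for the flap endonuclease and LOC_Os02g07240 in the *Osam1*-labelled library.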

How the data were processed

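Poly(A) RNA of 1 *Osam1* and 1 wild-type sample was sequenced by the authors in pairs of 100 bp. They filtered reads for adaptors and quality, aligned them with SOAPaligner/soap2 allowing up to 2 mismatches to the genome of the Rice Genome Annotation Project, whose release is not given in the sources used here, and calculated expression with ERANGE 4.0. The deposited values are FPKM per transcript model with 2 decimals, while the methods name RPKM. Reads that cross exon junctions were not matched, which lowers the values of genes with many short exons.

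FPKM were added per locus. The ratio was log2((FPKM + 1) labelled *Osam1* / (FPKM + 1) labelled wild type), and 2-fold was a size rule without a test. The background was formed by loci whose mean over both libraries reached 1 FPKM. All 7 members passed. The members, lists and rules were chosen with earlier results of these data known. Named were all members and a list of 6 loci of replication or the cell cycle that the study annotates by identifier, *CDKA-1* (listed there under oocyte meiosis) and a flap endonuclease (listed under mismatch repair) among them. Among the loci with 1 transcript model for which the study lists a direction, 13 of 13 had the opposite sign in the columns as labelled.

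Steps of whole reads were searched in loci with 1 model and values from 1 FPKM, up to 10 FPKM in the *Osam1*-labelled library, counting a ratio as matching when it equalled the step times a ratio of whole numbers up to 8 within the rounding of 0.005 FPKM. Fewest reads were sought within 0.1% of each step. The calculations were tested on simulated data, with changes set only in loci at levels above those of the MCM genes. That test therefore does not cover the size rule at the level of the MCM genes. It also accepted a step found at a simple multiple or fraction of the true one. Alternatives were added values of 0.1 and 0.01 FPKM, 3 scalings, the highest or the first listed model in place of the sum, exchanged labels and other filters. Gene names were checked by name and chromosome in RefSeq's gene table for assembly ASM3414082v1, which does not carry the locus identifiers, so further replication genes were not analysed here. A planned description of promoter and protein sequences was not made. Python 3.11.15, numpy 2.4.6, pandas 2.3.3 and matplotlib 3.10.9 were used.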

Additional observations from a re-analysis of the deposited data

How the results depend on the processing

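Apart from the exchange of labels and the use of the first listed transcript model, the alternatives left *MCM6* as the 1 member past 2-fold, with log2 ratios from 1.47 to 1.79, and *MCM2*, *MCM3*, *MCM4*, *MCM5*, *MCM7* and *PCNA* kept their signs. With the column labels exchanged, the log2 ratio of *MCM6* was -1.53, 0 members were at least 2-fold higher and 1 was at least 2-fold lower, and the median of the 6 MCM genes was -0.089. With the first listed model, *MCM7* was listed at 0 in both libraries, and the SD of the MCM levels rose to 60.0% of the mean in the *Osam1*-labelled library and to 64.8% in the wild-type-labelled library. The SD of the 6 log2 ratios ranged from 0.69 to 0.85 over all alternatives. Of the 21837 loci whose mean reached 1 FPKM, 4498 were at least 2-fold higher and 5217 lower; with loci above 0 in both libraries alone these were 2881 and 2788, a construction that drops loci listed at 0. The scalings moved all ratios by at most 0.07. No paired analysis was possible because each genotype has 1 library.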

Other observations

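The loci next to each member by locus number, 3 on either side, gave 42 neighbours, of which 15 were listed at 0 in both libraries, 7 were at least 2-fold higher in the *Osam1*-labelled library and 8 at least 2-fold lower. All 6 neighbours of *MCM4* were listed at 0 in both. Around *MCM6*, 4 of 6 were listed at 0 in both libraries, LOC_Os05g14610 was listed at 0 in the *Osam1*-labelled library and at 0.11 FPKM in the other, and LOC_Os05g14620 had 2.62 FPKM in the *Osam1*-labelled library and was listed at 0 in the wild-type-labelled library. *MCM6* and *MCM4* thus stood above their immediate neighbours in both libraries, and so did *PCNA*. The neighbours were looked at after the values of the members were known.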
